A study of Mus musculus with 3 samples.

Results

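The keratin family of the mouse cornea was examined in 3 RNA-seq libraries. Members were the protein-coding genes in the deposited count table whose symbol is Krt followed by a number and at most 1 letter, which leaves out the keratin-associated proteins. There were 45 such genes among 16787 protein-coding genes and 21760 genes in all. Of these, 26 had at least 20 counts in at least 1 library and are described one by one, and the other 19 are given as counts. The first library came from mice given PNU-282987 as eyedrops 3 times a day, a compound that activates α7 nicotinic acetylcholine receptors. The second came from mice after excision of the lacrimal gland, which makes tears and whose loss is used to model dry eye, and the third from sham mice that had an incision in the same place with the glands left untouched. The labels give no strain, age or sex, and leave out whether mice given eyedrops had the gland excised too and whether corneas were pooled. The series was deposited to study the α7 receptor in dry eye disease.

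Each group had 1 library, so the spread between animals is unknown and no test across samples was possible. A ratio below compares 2 libraries, and its 95% interval is computed from the 2 counts alone, so it reflects counting error only. PCR copies of one molecule cannot be told apart in the counts, so the interval may be too narrow even for that. Total counts were 39616004 for PNU-282987, 37692972 for excision and 37703843 for sham. A gene is called higher or lower where its scaled counts differed by 2-fold or more with an interval that leaves out a ratio of 1. The label cornea was checked on its markers: Krt12 was the most abundant gene in each library, and Aldh3a1, the abundant corneal crystallin, had 739271 counts in PNU-282987, 651430 in excision and 671828 in sham. Pax6, the eye transcription factor, had 22491, 20945 and 22930 counts in the same libraries. In bulk tissue, fewer cells of a type and less RNA per cell cannot be told apart.

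Keratins are the intermediate filament proteins of epithelial cells. A filament is built from pairs of 1 acidic type I and 1 basic type II chain, so the genes are usually read in pairs, and the pair in use changes with the kind of epithelium and the layer within it. Basal cells of stratified epithelia use Krt5 with Krt14 or Krt15, differentiating corneal epithelium uses Krt12, and mucosal epithelia such as the conjunctiva use Krt4 with Krt13. Simple epithelia use Krt8 with Krt18, often with Krt7 and Krt19, and wounded or hyperproliferating epithelium uses Krt6a, Krt6b, Krt16 and Krt17. In mice the type I genes lie in a cluster on chromosome 11, and the type II genes lie with Krt18 in a cluster on chromosome 15.

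Some members are so alike that their reads can be hard to assign, and the sequences show how close one such pair is. Krt6a and Krt6b, both on chromosome 15, had 97.6% identical coding sequence in the GENCODE M21 transcripts. The 2 lines below are coding bases 787 to 876 of each gene, read 5′ to 3′, the 90 bases with the most differences between them, with the 12 differing bases in capitals.
Krt6a: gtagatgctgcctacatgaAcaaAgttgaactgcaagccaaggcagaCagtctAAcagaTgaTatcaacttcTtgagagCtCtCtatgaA
Krt6b: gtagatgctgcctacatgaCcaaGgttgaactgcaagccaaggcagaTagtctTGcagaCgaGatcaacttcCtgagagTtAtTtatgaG
The line below is the start of the longest identical run, which spans 280 bases from coding base 34, and any read within it fits both genes.
Krt6a and Krt6b: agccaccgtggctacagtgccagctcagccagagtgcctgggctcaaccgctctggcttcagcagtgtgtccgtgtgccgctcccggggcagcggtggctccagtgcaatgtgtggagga
Of the 75-base windows in the Krt6a transcripts, 36.2% also occurred in Krt6b. The sources used here do not say how shared reads were counted, so Krt6a and Krt6b are given singly and as a sum.

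Promoter sequences are shown for the cornea-specific member and for one of the members that was called higher, because Krt12 was within 2-fold in every comparison below and Krt13 was not. They come from the RefSeq promoter table on GRCm38.p6, which held 31 promoters of 30 of the 45 members, and cover 250 bases before the transcript start. Krt12 is at chr11:99422260-99422509 on the minus strand, and its capitals mark a TATA box, TATAAA. Krt13 has 2 starts in the table, at chr11:100121567-100121816 and chr11:100120578-100120827 on the minus strand, with capitals on matches to the AP-1 motif TGANTCA.
Krt12: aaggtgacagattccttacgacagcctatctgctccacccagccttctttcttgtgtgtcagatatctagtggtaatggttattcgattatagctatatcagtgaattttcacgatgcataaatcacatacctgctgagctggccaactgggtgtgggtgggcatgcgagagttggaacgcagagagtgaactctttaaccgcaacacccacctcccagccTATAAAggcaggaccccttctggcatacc
Krt13, first start: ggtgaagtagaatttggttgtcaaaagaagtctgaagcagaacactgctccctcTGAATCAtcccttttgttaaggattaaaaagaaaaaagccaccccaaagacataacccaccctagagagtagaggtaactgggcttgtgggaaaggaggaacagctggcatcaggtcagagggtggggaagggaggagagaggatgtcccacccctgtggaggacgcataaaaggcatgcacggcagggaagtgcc
Krt13, second start: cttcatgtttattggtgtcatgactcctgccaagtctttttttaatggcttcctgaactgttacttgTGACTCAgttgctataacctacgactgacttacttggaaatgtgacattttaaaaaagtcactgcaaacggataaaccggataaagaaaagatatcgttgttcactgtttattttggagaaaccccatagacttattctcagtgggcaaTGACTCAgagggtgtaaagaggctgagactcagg
Among the 18 promoters of members with the count minimum, TGANTCA occurred on either strand in 2, which are the 2 Krt13 starts, against 6.75% of all 32851 promoters of the same length. The TATA box was in 6 of the 18, against 12.4% of all. The cytokine response motif TTCNNNGAA and the interferon motif known as ISRE occurred in 0 of the 18, against 7.02% and 2.98% of all promoters. The promoter table lacked Krt6a and Krt6b, and also Krt4, Krt15, Krt16, Krt17 and Krt19, which are called higher in PNU-282987 than in sham below. The motif counts therefore do not cover these members. A match describes the letters of these windows and is not a binding site.

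Keratin transcripts made up 8.67% of all counts in PNU-282987, 6.84% in excision and 7.40% in sham. The counting intervals were 8.66% to 8.67%, 6.83% to 6.85% and 7.39% to 7.41%. In CPM, the unit of read counts scaled to one common library size, here corrected by the TMM method, the summed level of the family was 88400 in PNU-282987, 69446 in excision and 71420 in sham. The sum was 1.24-fold higher in PNU-282987 than in sham, and in excision it was 0.972 times that of sham. Without Krt12, the summed level was 46308 in PNU-282987, 38867 in excision and 31940 in sham, ratios of 1.45 for PNU-282987 over sham and 1.22 for excision over sham. Excision thus had the least Krt12 and sham the least of all the other keratins together.

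**Figure D1:**
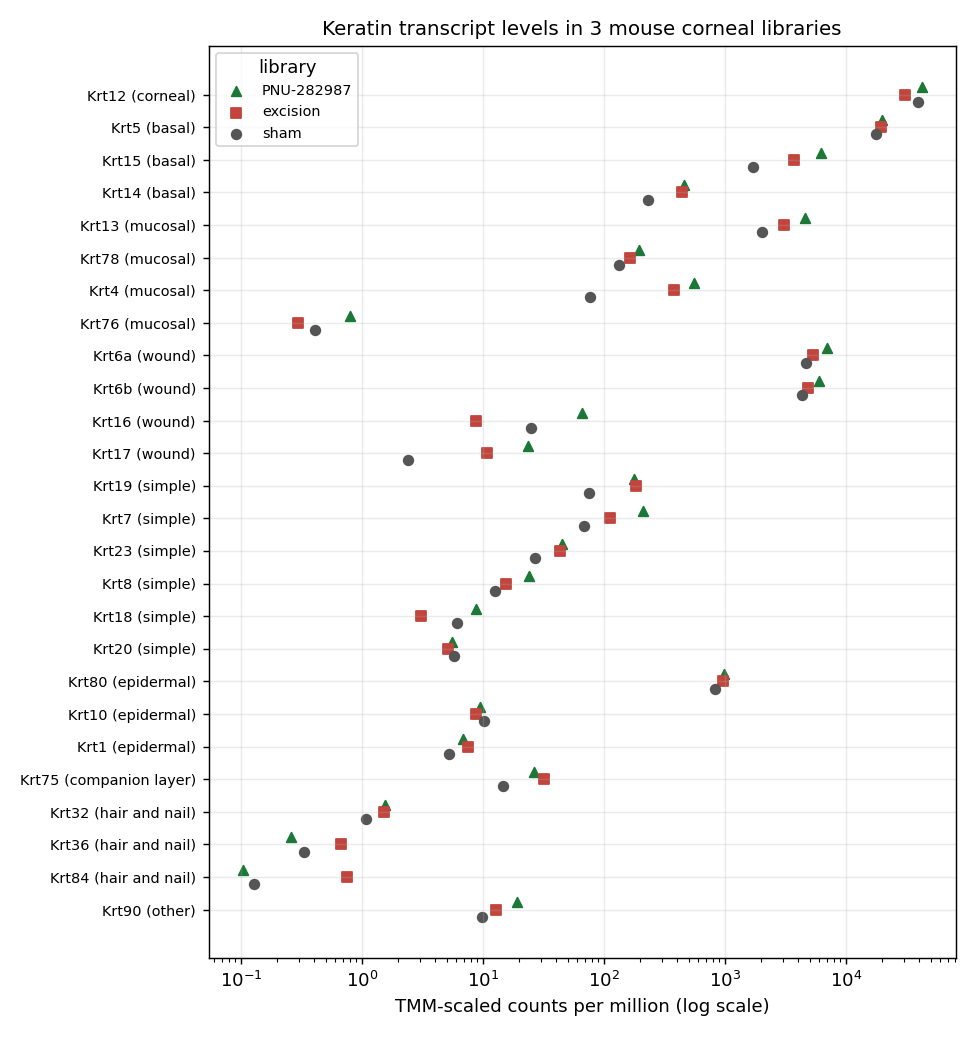
TMM-scaled CPM on a log scale for the 26 keratins that reached 20 counts in a library, grouped by role. Triangles are PNU-282987, squares excision and circles sham, 1 library each. For Krt4, Krt15 and Krt17 the sham circle lies left of both other symbols, and for Krt16 and Krt18 the excision square does.

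Of the 26 members, 7 were called higher in PNU-282987 than in sham and 0 lower, and over all 14180 genes with the count minimum 2.58% were called higher and 4.96% lower. The 7 were Krt4, Krt7, Krt13, Krt15, Krt16, Krt17 and Krt19, or 26.9% of the members. In excision against sham 6 members were higher, Krt4, Krt15, Krt17, Krt19, Krt75 and Krt84, and 2 were lower, Krt16 and Krt18. These are 23.1% and 7.69% of the members, against 4.01% and 5.48% of all genes. In PNU-282987 against excision 4 were higher, Krt16, Krt17, Krt18 and Krt76, and 2 were lower, Krt36 and Krt84, which is 15.4% and 7.69% of the members against 3.9% and 5.62% of all genes. Krt36, Krt76 and Krt84 reached the count minimum only in the library where they were highest, so the filter favoured their calls. With a minimum of 100 counts in 1 library, or a mean of 20, Krt84 was no longer called higher in excision, nor Krt76 in PNU-282987. The 2 lower members had 25 and 28 counts at most. With either of these filters 0 were lower in PNU-282987 against excision, where 2.51% and 4.45% of all genes were.

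The median log2 ratio of the 26 members was 0.66 for PNU-282987 over sham, 0.27 for PNU-282987 over excision and 0.44 for excision over sham, beside medians of 0.00, 0.01 and 0.00 over all genes tested. The ratio was above 1 for 22 of 26 members in PNU-282987 over sham, and 20 of 26 in excision over sham. For PNU-282987 over excision it was above 1 for 21 of 26. Each library is in 2 of these comparisons, so their values are not independent.

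**Figure D2:**
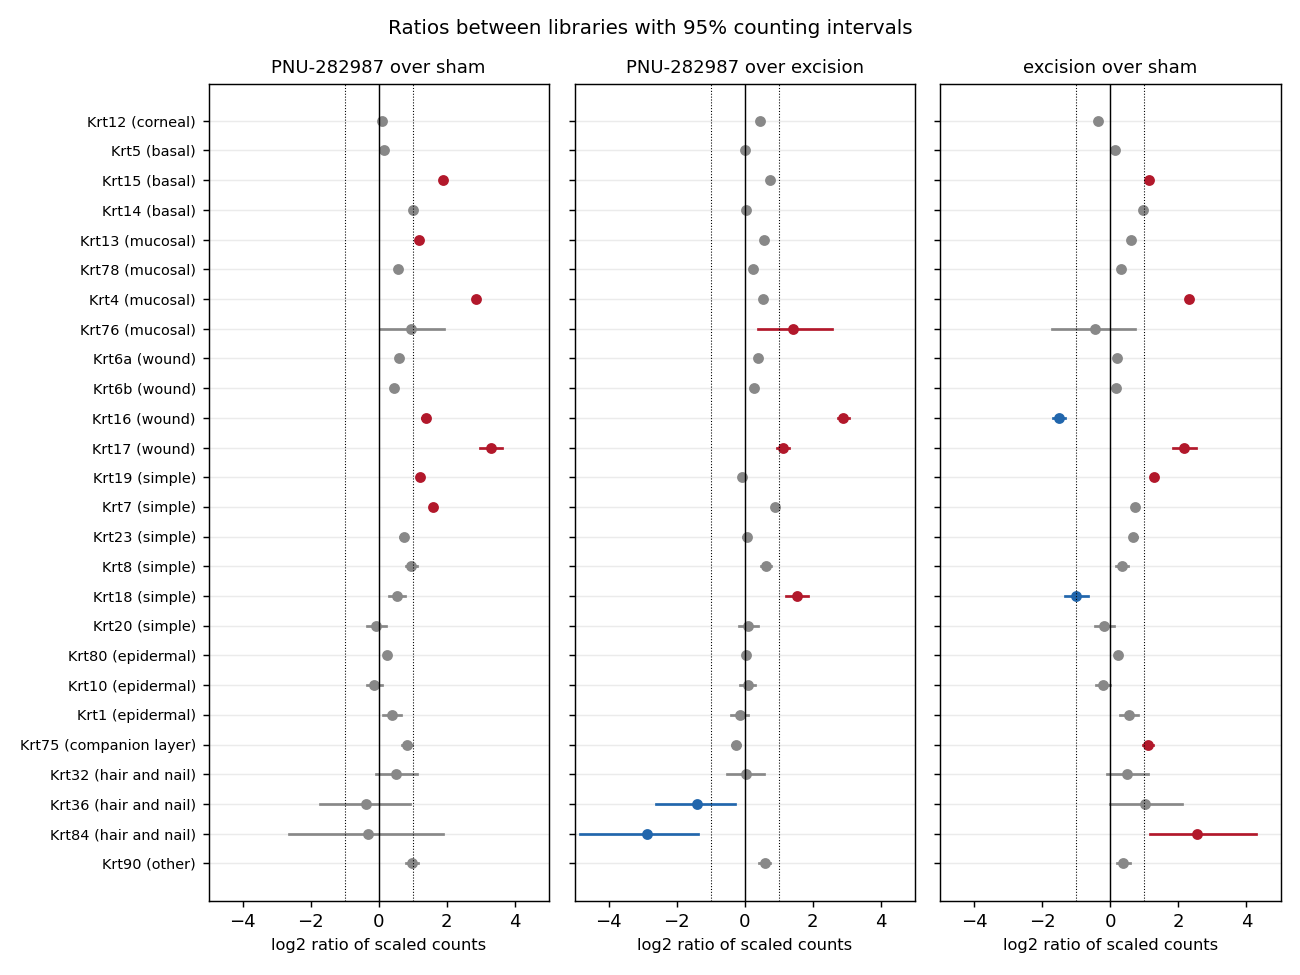
Log2 ratio of scaled counts for the same 26 keratins in the 3 comparisons, with 95% counting intervals as bars. Red points were called at least 2-fold higher and blue points at least 2-fold lower, and dotted lines mark 2-fold. The PNU-282987 over sham panel has 7 red and 0 blue points.

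Krt12, the keratin of differentiated corneal epithelium, had 1634592 counts in PNU-282987, 1135144 in excision and 1541851 in sham. Excision was the lowest library, and PNU-282987 and sham were close together. The ratio was 1.38 (1.373 to 1.380) for PNU-282987 over excision, 1.07 (1.064 to 1.069) for PNU-282987 over sham and 0.775 (0.773 to 0.776) for excision over sham. None of the 3 ratios reached 2-fold. A830036E02Rik, a non-coding gene antisense to Krt12, had 57877, 44054 and 54044 counts in PNU-282987, excision and sham, which is 3.54%, 3.88% and 3.51% of the counts of Krt12. Of the 75-base windows of Krt12, 35.6% also lie in that gene. With the strand setting not given in the sources used here, reads within those shared stretches cannot be assigned to 1 of the 2 genes.

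Other corneal epithelium markers were mostly within 2-fold. Of the 14 non-keratin markers listed for this epithelium, all 14 had the count minimum, and 0 were called in excision against sham or in PNU-282987 against excision. Of all genes, 4.01% were higher and 5.48% lower in excision against sham, and 3.9% and 5.62% in PNU-282987 against excision. In PNU-282987 against sham, 2.58% of all genes were higher and 4.96% lower. Of the 14 markers 1 was higher there, Ly6d, a surface protein gene with 106 counts in PNU-282987, 65 in excision and 46 in sham. The summed level of the 14 markers was 34861 CPM in PNU-282987, 35102 in excision and 33228 in sham.

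Krt5, the basal type II keratin, had 767997 counts in PNU-282987, 724199 in excision and 693158 in sham. Its ratio was 1.11 (1.111 to 1.118) for PNU-282987 over sham and 1.10 (1.096 to 1.103) for excision over sham, so it varied little. Krt14, its basal type I partner, had 17896 counts in PNU-282987, 16496 in excision and 9011 in sham, with both other libraries above sham. The ratio was 1.997 (1.95 to 2.05) for PNU-282987 over sham and 1.93 (1.88 to 1.98) for excision over sham, just under the 2-fold limit, and with DESeq2 size factors Krt14 was called higher in PNU-282987.

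Krt15, a type I keratin of basal cells in limbus and conjunctiva, had 241041 counts in PNU-282987, 137853 in excision and 65935 in sham. Sham was the lowest and PNU-282987 the highest library. The ratio was 3.68 (3.64 to 3.71) for PNU-282987 over sham, 2.20 (2.18 to 2.22) for excision over sham and 1.67 (1.66 to 1.68) for PNU-282987 over excision. Per kilobase of transcript, Krt15 was the 3rd most abundant keratin in PNU-282987, the 4th in excision and the 6th in sham.

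Levels of different keratins were compared per kilobase, as CPM divided by the GENCODE M21 exon length. On this scale Krt15 was 0.161 of Krt12 in PNU-282987, 0.132 in excision and 0.0466 in sham. Krt14 was 0.0302 of Krt5 in PNU-282987, 0.0295 in excision and 0.0168 in sham, so Krt5 was far above Krt14 in each library. The type I keratin Krt12 was in turn above Krt5 in each library. Krt12 made up 76.6% of the summed type I level in PNU-282987, 78.6% in excision and 89.7% in sham, and Krt15 made up 12.3%, 10.4% and 4.18%. The summed type I level was 1.93 times the type II level in PNU-282987, 1.51 times in excision and 1.93 times in sham.

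**Figure D3:**
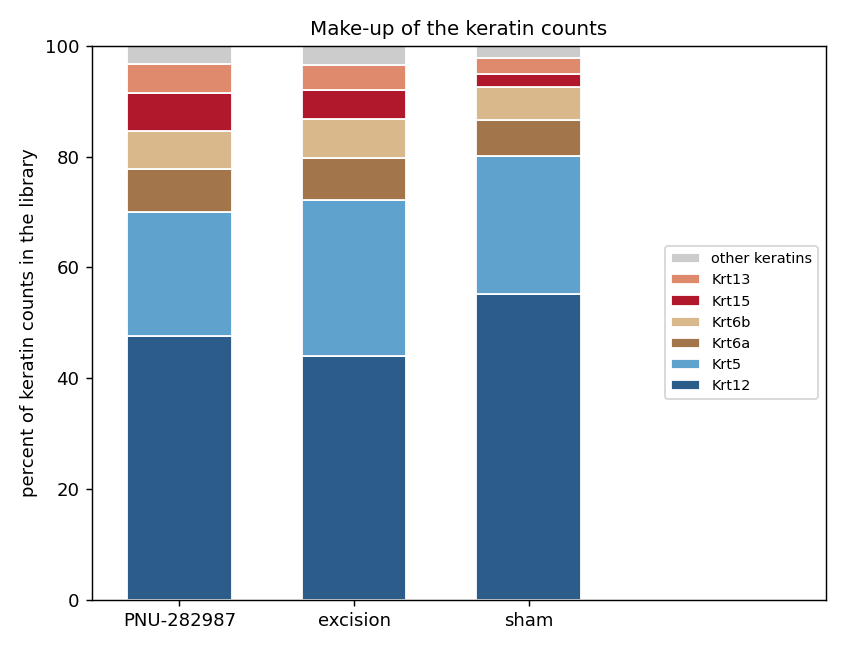
Stacked bars of each library's keratin counts by gene, in percent of all keratin counts in that library. Krt12 takes 47.6% in PNU-282987, 44.0% in excision and 55.3% in sham, and Krt15 takes 7.02%, 5.35% and 2.36%.

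Krt4, the mucosal type II keratin, had 21643 counts in PNU-282987, 14142 in excision and 3013 in sham. Sham stood far below the other 2 libraries. The ratio was 7.22 (6.95 to 7.51) for PNU-282987 over sham, 4.94 (4.75 to 5.14) for excision over sham and 1.46 (1.43 to 1.49) for PNU-282987 over excision. Krt13, its type I partner, had 179377 counts in PNU-282987, 114747 in excision and 78979 in sham. It had the same order of libraries with smaller ratios, 2.28 (2.27 to 2.30) for PNU-282987 over sham and 1.53 (1.51 to 1.54) for excision over sham. Per kilobase, Krt13 was 10.7 times Krt4 in PNU-282987, 10.5 times in excision and 33.8 times in sham.

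Krt78, a type II keratin of upper layers in stratified epithelia, had 7626 counts in PNU-282987, 6142 in excision and 5175 in sham, ratios of 1.48 for PNU-282987 over sham and 1.25 for excision over sham. Krt76, a type II keratin of oral mucosa, had 31 counts in PNU-282987, 11 in excision and 16 in sham. It was called higher in PNU-282987 than in excision, at 2.69-fold with an interval of 1.32 to 5.94, but not with a minimum of 100 counts.

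Krt19, a type I keratin of simple epithelia that conjunctival and limbal cells also carry, had 6825 counts in PNU-282987, 6819 in excision and 2942 in sham. The first 2 libraries were alike and sham was lower, with ratios of 2.33 (2.23 to 2.44) for PNU-282987 over sham and 2.44 (2.33 to 2.55) for excision over sham. Krt7, a type II keratin of glandular and ductal epithelia, had 8081 counts in PNU-282987, 4189 in excision and 2679 in sham. The libraries were spread in that order, at 3.03-fold (2.90 to 3.17) for PNU-282987 over sham, 1.84-fold (1.78 to 1.91) for PNU-282987 over excision and 1.65-fold (1.57 to 1.73) for excision over sham.

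Genes of glands and of goblet cells, which lie in the conjunctiva next to the cornea, also differed between the libraries. Muc5ac, the secreted goblet cell mucin, had 2980 counts in PNU-282987, 11 in excision and 1 in sham. Gp2, for a glycoprotein on the surface of secretory cells, had 3801, 4 and 5 counts in PNU-282987, excision and sham, and Agr2, which folds mucins, had 1817, 133 and 49. Scgb2b2, a secretoglobin gene, had 768 counts in PNU-282987 and 0 in both excision and sham, at least 257-fold higher than in sham with the floor of 3 counts per library. Tff1, a goblet cell trefoil factor gene, had 96 counts in PNU-282987, 4 in excision and 0 in sham.

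Of 17 listed goblet and gland genes with the count minimum, 9 were higher and 0 lower in PNU-282987 against sham, and 9 were higher and 1 lower in PNU-282987 against excision. Of all genes with that minimum, 2.58% were higher and 4.96% lower against sham, and 3.9% and 5.62% against excision. Muc5ac, Muc5b, Gp2, Tff1, Muc16, Scgb1b2 and Scgb2b2 reached that minimum in PNU-282987 alone. The filter thus left no way for these genes to be called lower in PNU-282987. In excision against sham 3 were higher and 1 lower, with Muc5ac called on 11 and 1 counts, both under the minimum. There 4.01% of all genes were higher and 5.48% lower. Of the 19 listed genes in the table, 0 were at 0 in PNU-282987, 4 in excision and 5 in sham. Their summed level was 8333 CPM in PNU-282987, 9386 in excision and 7381 in sham, and was mostly Aqp5, a water channel gene of corneal epithelium as well as glands, with 267419, 243455 and 234339 counts. The 3 genes higher in excision than in sham were Muc5ac and Agr2, with the counts above, and Muc4, a membrane mucin gene of the ocular surface, with 41394 counts in PNU-282987, 100816 in excision and 50645 in sham. The gene lower in excision was Spdef, a transcription factor of goblet cells, with 94, 4 and 22 counts in PNU-282987, excision and sham. Muc5b, a secreted mucin gene, had 676, 0 and 1. Members of the list thus went both ways in excision, and most of its called genes were higher in PNU-282987, where the filter favoured such calls. The part of conjunctival or glandular tissue in the keratin values was not tested.

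**Figure D4:**
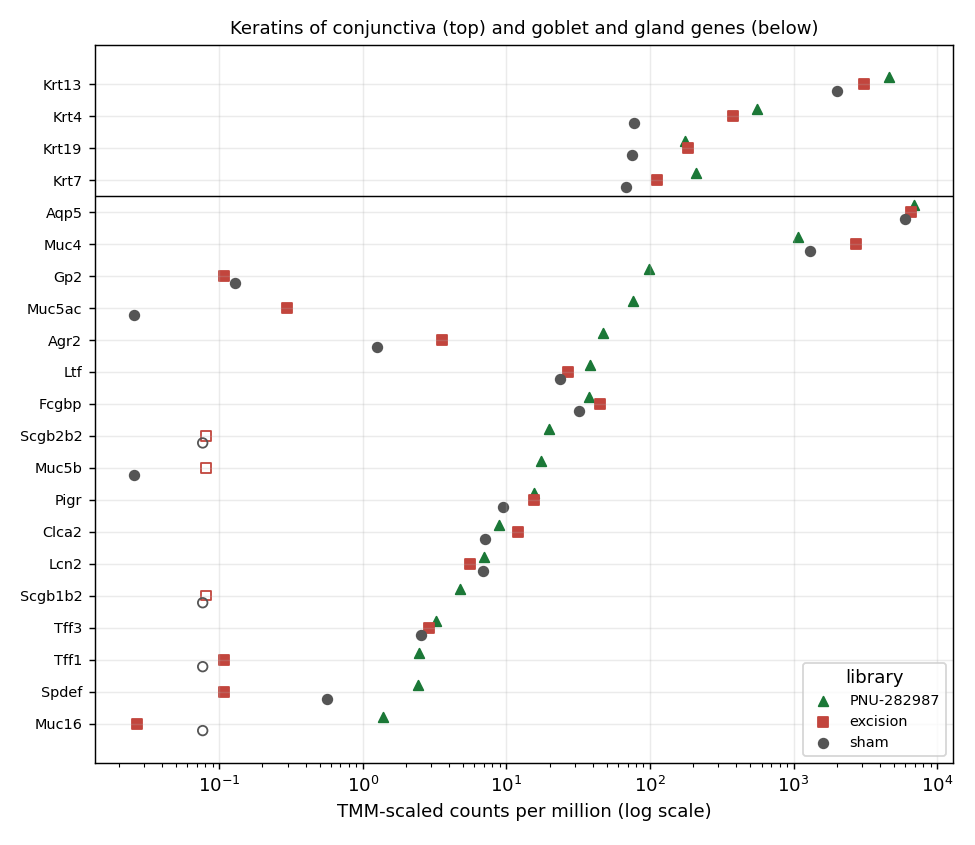
TMM-scaled CPM on a log scale for 4 keratins of conjunctiva, above the line, and for goblet and gland genes, below it, in PNU-282987 (triangles), excision (squares) and sham (circles). Open symbols are libraries with 0 counts, drawn at the floor of 3 counts, so a filled symbol for 1 count lies to their left. Krt4 in sham lies apart from PNU-282987 and excision, while Gp2 and Muc5ac lie apart in PNU-282987.

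Krt6a and Krt6b, type II keratins of wounded and hyperproliferating epithelium, were abundant in all 3 libraries. Krt6a had 269872 counts in PNU-282987, 196253 in excision and 180986 in sham, and Krt6b had 230460, 180667 and 168257. Both had the same order of libraries. Their summed level was 12884 CPM in PNU-282987, 10154 in excision and 8942 in sham, which is 1.44-fold (1.435 to 1.447) for PNU-282987 over sham and 1.14-fold (1.130 to 1.141) for excision over sham. Krt6a was 53.9% of that sum in PNU-282987, 52.1% in excision and 51.8% in sham. Gm49428, a non-coding gene antisense to Krt6a, had 5096, 3840 and 3417 counts in the same libraries. Reads from stretches that it shares with Krt6a cannot be told apart without the strand setting.

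Krt16, a type I partner of the Krt6 chains, had 2546 counts in PNU-282987, 326 in excision and 979 in sham. The 3 libraries lay far apart, with excision lowest. The ratio was 7.47 (6.65 to 8.40) for PNU-282987 over excision and 2.62 (2.43 to 2.82) for PNU-282987 over sham, and excision was 2.85-fold lower (2.52 to 3.25) than sham. Of the 75-base windows of Krt16, 28.9% also occurred in other transcripts and 22.5% in Gm11597, so that reads from those stretches could be assigned to either gene.

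Krt17, the other type I member of this group, had 907 counts in PNU-282987, 397 in excision and 93 in sham. Here sham was lowest. The ratio was 9.81 (7.92 to 12.3) for PNU-282987 over sham, 4.49 (3.57 to 5.69) for excision over sham and 2.18 (1.94 to 2.46) for PNU-282987 over excision. It shared 0 of its 75-base windows with another transcript. In excision against sham, Krt16 and Krt17 were thus called in opposite directions, and per kilobase Krt16 was 2.78 times Krt17 in PNU-282987, 0.814 times in excision and 10.4 times in sham.

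Krt8 and Krt18 are the type II and type I pair of simple epithelia. Both were highest in PNU-282987, and only in excision against sham did they go opposite ways. Krt8 had 938 counts in PNU-282987, 580 in excision and 486 in sham, ratios of 1.94 (1.74 to 2.17) for PNU-282987 over sham and 1.26 (1.11 to 1.42) for excision over sham. Krt18 had 343 counts in PNU-282987, 113 in excision and 238 in sham, so excision was lowest. It was 1.45-fold higher (1.22 to 1.72) in PNU-282987 than in sham. In PNU-282987 over excision, Krt18 was 2.90-fold higher (2.34 to 3.62) and Krt8 was 1.55-fold higher (1.39 to 1.72). Krt18 was 2.002-fold lower (1.59 to 2.53) in excision than in sham, at the limit of the call. Krt8 per Krt18, per kilobase, was 2.01 in PNU-282987, 3.77 in excision and 1.499 in sham. Krt8 shares 23.5% of its 75-base windows with other transcripts, 22% with Krt8-ps, and Krt18 shares 0.

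Markers of lens and corneal endothelium also differed between the libraries. Of 16 lens genes, 15 were lower in excision than in sham, and their summed level was 798 CPM in PNU-282987, 170 in excision and 873 in sham. Cryaa, the lens α-crystallin gene, had 8774 counts in PNU-282987, 175 in excision and 9525 in sham. Lower in excision too were the crystallin genes Crybb1, with 396, 3 and 504 counts, Cryba2, with 960, 11 and 1057, and Crygs, with 1580, 21 and 2021. Lgsn, for lengsin, had 167, 2 and 229. Crygd and Crygc, 2 further crystallin genes, were also lower in PNU-282987 than in sham, with 232, 6 and 839 counts and 240, 8 and 762 counts. Crybb1, Cryba2, Lgsn, Crygd and Crygc were under the count minimum in excision, so the filter favoured their lower calls there. Of 9 endothelium genes 7 were lower and 1 was higher in excision than in sham, with summed levels of 1076, 693 and 1499 CPM in PNU-282987, excision and sham. Col8a2, an endothelial basement membrane collagen gene, had 7930, 2555 and 12972 counts, and its partner Col8a1 had 1603, 272 and 2028. The transporter and adhesion genes Slc4a4, with 733, 185 and 1099 counts, Atp1b1, with 2855, 731 and 4190, and Cdh2, with 201, 53 and 313, had the same order of libraries. Slc4a11, a transporter gene, was lower in PNU-282987 than in sham as well, with 2379, 1577 and 6183 counts, and Car12, for a carbonic anhydrase, was the gene that was higher, with 276, 87 and 27. Of 11 keratocyte genes, 4 were lower and 0 higher in excision than in sham, among them Kera, the corneal stroma proteoglycan gene, with 3716 counts in PNU-282987, 3217 in excision and 7395 in sham. The other 3 were Ogn, with 1096, 392 and 1463 counts, Chst5, with 1229, 656 and 2370, and Ptgds, with 172, 77 and 263. Ogn and Ptgds were also higher in PNU-282987 than in excision, and Col5a1, a collagen gene with 489, 669 and 1081 counts, was lower in PNU-282987 than in sham. The part of these tissues in the keratin values was not tested.

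The remaining members of simple and stratified epithelia were within 2-fold in every comparison. Krt23, a type I keratin, had 1744 counts in PNU-282987, 1599 in excision and 1054 in sham. Krt20, a type I keratin of gut and urothelium, had 214, 189 and 225. The epidermal pair had low counts, 264, 279 and 203 counts of Krt1 and 364, 325 and 399 of Krt10 in PNU-282987, excision and sham. Krt80, a type II keratin of differentiating epithelia, was the most abundant of this group, with 38262, 35681 and 32508 counts. Krt90, a type II member, had 744, 472 and 381 counts, a ratio of 1.96 (1.73 to 2.23) for PNU-282987 over sham.

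Krt75, of the companion layer of the hair follicle, had 1027 counts in PNU-282987, 1174 in excision and 575 in sham. Both other libraries were above sham, at 2.15-fold (1.94 to 2.38) for excision and 1.80-fold (1.62 to 1.99) for PNU-282987. Krt84, a type II hair and nail keratin, had 4 counts in PNU-282987, 28 in excision and 5 in sham, and was called higher in excision than in sham at 5.89-fold with a wide interval of 2.25 to 19.5, and not with a minimum of 100 counts. Krt36, a type I hair and nail keratin, had 10, 25 and 13 counts, and Krt32, of the hair cuticle, had 60, 56 and 42. Of 10 hair follicle genes in the table other than keratins, 2 were at 0 in PNU-282987, 2 in excision and 4 in sham. Of the 3 with the count minimum, 1 was lower in PNU-282987 than in both other libraries, Foxn1. Of all genes, 4.96% were lower in PNU-282987 than in sham and 5.62% lower than in excision. Foxn1 was under the count minimum in PNU-282987, so the filter favoured these calls. Tchh, the inner root sheath protein trichohyalin, had 43, 46 and 28 counts.

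The 19 members under the count minimum include most hair shaft and root sheath keratins and the epidermal members Krt2, Krt9, Krt77 and Krt79. Together they had 51 counts in PNU-282987, 70 in excision and 48 in sham, with no single value above 19, 17 and 15. Of the 19, 7 were at 0 in PNU-282987, 3 in excision and 10 in sham, and the limit set by a count of 0, taken as 3 counts, corresponds to 0.0773, 0.0808 and 0.0768 CPM. Without the count minimum, 4 of the 19 passed the call in a comparison, on counts too low to weigh. Krt222 had 3 counts in PNU-282987, 17 in excision and 6 in sham, and was higher in excision than in sham and lower in PNU-282987 than in excision. Krt33a, with 9, 13 and 4 counts, was higher in excision than in sham. Krt79, with 6, 1 and 0, was higher and Krt27, with 1, 3 and 8, was lower in PNU-282987 than in sham.

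Neighbouring keratin genes did not all move together. In the gene order of RefSeq on GRCm38.p6, Krt13, Krt15 and Krt19 follow each other with 0 protein-coding genes between them, and the ratios for PNU-282987 over sham were 2.28, 3.68 and 2.33. Those for excision over sham were 1.53, 2.20 and 2.44. Krt14, Krt16 and Krt17 also follow each other, with 1.997, 2.62 and 9.81 for PNU-282987 over sham, and 1.93, 0.350 and 4.49 for excision over sham. On chromosome 15, Krt6b, Krt6a and Krt5 lie side by side, at 1.38, 1.4996 and 1.11 for PNU-282987 over sham and 1.13, 1.14 and 1.10 for excision over sham. Krt8 and Krt18 are also neighbours, with 1.94 and 1.45 for PNU-282987 over sham and 1.26 and 0.4995 for excision over sham.

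**Figure D5:**
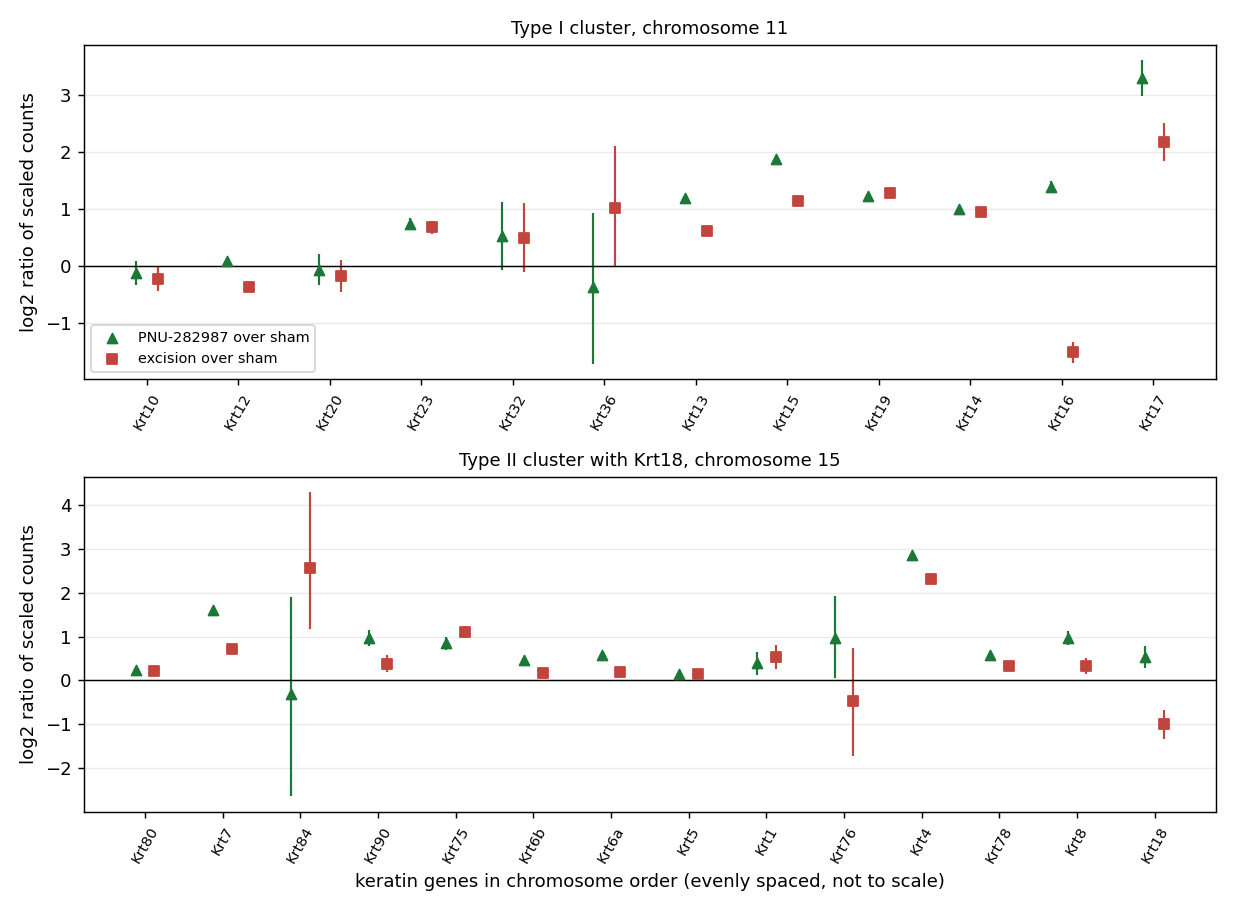
Log2 ratio over sham for keratins with the count minimum in chromosome order, type I cluster above and type II cluster with Krt18 below. Triangles are PNU-282987 over sham and squares excision over sham, bars are 95% counting intervals, and genes are evenly spaced. Krt16 lies between Krt14 and Krt17, with an excision value of -1.51 where theirs are 0.95 and 2.17.

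Genes that anchor keratin filaments were mostly within 2-fold, as genes with the count minimum mostly were. Of all genes, 2.58% were higher and 4.96% lower in PNU-282987 against sham, and 4.01% and 5.48% in excision against sham. In PNU-282987 against excision, 3.9% of all genes were higher and 5.62% lower. Of 26 desmosome and keratin linker genes, all with the count minimum, 0 were called in PNU-282987 against sham and 1 was lower in excision than in sham. That gene was Pkp2, for the desmosomal plaque protein plakophilin, with 194 counts in PNU-282987, 72 in excision and 192 in sham. In PNU-282987 against excision Pkp2 was higher and 2 genes were lower. These were Plec, for plectin, which links filaments to hemidesmosomes, with 8334 counts in PNU-282987, 17350 in excision and 10356 in sham, and Eppk1, for the linker epiplakin, with 385, 748 and 418. The medians of the list on the log2 scale were 0.14 for PNU-282987 over sham, -0.16 for PNU-282987 over excision and 0.28 for excision over sham.

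Of 9 other intermediate filament genes with the count minimum, 3 were lower in excision than in sham and higher in PNU-282987 than in excision. Of all genes, 5.48% and 3.9% were. Bfsp1 and Bfsp2 encode the lens beaded filament and are also in the lens list, with 502, 218 and 484 counts of Bfsp1 and 104, 18 and 175 of Bfsp2 in PNU-282987, excision and sham. Sync, for syncoilin, had 32, 10 and 33. Bfsp2 and Sync were under the count minimum in excision, so the filter favoured their calls. Of 20 transcription factor genes tied to keratin genes, 0 were called in excision against sham, where 4.01% of all genes were higher and 5.48% lower. A list of this size holds few calls at those shares. Foxn1, a factor of hair keratin genes, was lower in PNU-282987 than in both other libraries, with 6 counts in PNU-282987, 26 in excision and 20 in sham. It was under the count minimum in PNU-282987, so the filter favoured these calls. Klf4, Trp63 and Ehf, factors of stratified epithelia, were not called, with 29061, 37469 and 30273 counts of Klf4 in PNU-282987, excision and sham.

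The counts of calls in the other listed tissues stand beside these shares over all genes. In PNU-282987 against sham 2.58% were higher and 4.96% lower, and in PNU-282987 against excision 3.9% and 5.62%. In excision against sham the shares were 4.01% and 5.48%. Cornified skin epidermis had 6 genes with the count minimum, of which 1 was higher in PNU-282987 than in sham. This was Cdsn, for corneodesmosin, with 605 counts in PNU-282987, 301 in excision and 221 in sham. Atoh1, the transcription factor of the Krt8- and Krt20-bearing Merkel cells, had 1 count in PNU-282987, 1 in excision and 0 in sham. Sox2, another factor of these cells, had 17, 0 and 1. Piezo2, the touch channel gene of Merkel cells and sensory neurons and the 1 listed gene with the count minimum, had 838 counts in PNU-282987, 1998 in excision and 2099 in sham, and was lower in PNU-282987 than in both other libraries. Of 8 meibomian and sebaceous gland genes with the count minimum, 1 was higher in PNU-282987 than in sham, 2 were higher in PNU-282987 than in excision and 1 was lower in excision than in sham. These were the lipid synthesis genes Far2, with 39, 12 and 16 counts in PNU-282987, excision and sham, and Fa2h, with 18, 3 and 20. Of 7 genes of retinal pigment epithelium and ciliary body, 2 were higher and 2 lower in PNU-282987 against sham, 3 higher and 0 lower in PNU-282987 against excision, and 0 higher and 2 lower in excision against sham. Ttr had 111, 42 and 45 counts and Rgr 69, 9 and 21, and both were higher in PNU-282987 than in both other libraries. Rlbp1, with 32, 9 and 30 counts, was lowest in excision. The pigment genes Tyrp1, with 13, 16 and 48, and Dct, with 86, 137 and 211, were lower in PNU-282987 than in sham. Far2, Fa2h and Tyrp1 reached the count minimum only in the library where they were highest, and Rlbp1 and Rgr were under it in excision. The filter thus favoured the calls that rest on those low values.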

How the data were processed

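Corneal RNA was sequenced in 3 libraries. RNA was isolated in TRIzol and made into libraries using a VAHTS Universal V6 kit, per the labels' protocols. The authors deposited whole-number counts of reads per gene, used here as deposited, and HTSeq and R 3.2.0 are named per the submitters' processing notes. The sources used here do not give the aligner, genome build, annotation or strand setting. The TMM method of edgeR 4.0.16, run under R 4.3.3, gave scaling factors of 0.980 for PNU-282987, 0.985 for excision and 1.036 for sham. Ratios were taken with no pseudocount, 0 was replaced by 3 counts, and intervals were exact conditional binomial (Clopper-Pearson) intervals computed with SciPy 1.17.1. Shares had Clopper-Pearson intervals. Genes with at least 20 counts in 1 library were kept. The calls were tested on simulated data with counting noise only. Members with the count minimum are named with their count in each library. Of the other lists, defining markers and called genes are named, called genes by size of ratio up to 4 a list and comparison. The members, the roles and the 13 gene lists were chosen with earlier results of these data known. Exon lengths came from GENCODE M21 and promoters from RefSeq, and shared windows were counted on GENCODE M21 transcripts. Other scalings, filters and fold limits were tried.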

Additional observations from a re-analysis of the deposited data

How the results depend on the processing

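With a limit of 1.5-fold, 10 keratins were higher in excision than in sham, 13 in PNU-282987 than in sham and 8 in PNU-282987 than in excision, where 8.22%, 5.02% and 7.62% of all genes were, and 2, 0 and 2 keratins were lower, where 9.03%, 9.7% and 11.2% of all genes were. Without the filter on low counts, 8 keratins were higher and 1 lower in PNU-282987 against sham (2.98% and 4.96% of all genes), 8 higher and 2 lower in excision against sham (4.36% and 4.95%), and 4 higher and 3 lower in PNU-282987 against excision (3.64% and 5.7%). With a mean of at least 20 counts, or at least 100 counts in 1 library, 5 keratins were higher in excision than in sham (2.99% and 2.07% of all genes). In PNU-282987, 7 were higher than in sham (2.03% and 1.11%) and 3 than in excision (3.25% and 1.96%). Under both filters 2 were lower in excision than in sham (4.35% and 2.74%). In PNU-282987, 0 were lower than in sham (3.79% and 1.74%) and 0 than in excision (4.45% and 2.51%). Over protein-coding genes only, the keratin share was 8.72% in PNU-282987, 6.89% in excision and 7.45% in sham. Of the 78 log2 ratios of members, 4 moved by more than their counting interval with DESeq2 1.42.0 size factors, 26 with total counts, 29 with keratins left out of the library size, and 29 with scaling to the corneal epithelium markers, an alternative chosen after seeing the data. Under these 4 scalings 0 changed sign. The largest shift of the median of all genes was -0.08 on the log2 scale. No paired analysis was possible because each group had 1 library, and for the same reason no replicate could be left out. Depth limits the members with few counts, such as Krt36, Krt76 and Krt84.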
